A study of Mus musculus with 14 samples.

Results

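10 cell-type regulators of alternative splicing were followed through 7 groups of mouse libraries: the muscleblind genes Mbnl1, Mbnl2 and Mbnl3, the CELF genes Celf1 and Celf2, the FOX gene Rbfox2, the STAR-domain genes Qk and Khdrbs1, and the epithelial regulators Esrp1 and Esrp2. They were taken by symbol, and all 10 were present among 24345 symbols in the RNA-seq tables and 24394 symbols in the immunoprecipitation tables. The study set out to compare splicing between embryonic stem cells, fibroblasts from mouse embryos and stem cells with less Dppa5a, an RNA-binding protein of pluripotent cells, and to identify RNAs bound by Dppa5a. The tables used here hold 1 value per gene, so the levels of the regulators are described and not the splicing of their targets.

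RNA-seq of total RNA was done for 4 groups, with 2 libraries each. Dppa5a_KD was a Dppa5a knockdown in an untreated stem cell line described as home made. KD_control was the untreated, wild type control of that knockdown in the same kind of cells. The mESC group was untreated, wild type cells, also from a home made line, and the MEF group was untreated, wild type primary fibroblasts. The other 3 groups, again of 2 libraries each, were RNA immunoprecipitation (RIP), in which RNA recovered with an antibody is sequenced. All RIP cells were home made stem cells that overexpressed 3Flag-Dppa5a, the IgG controls included. HU_Flag_RIP used a Flag antibody after a treatment named HU, Flag_RIP used the Flag antibody in untreated cells, and IgG_RIP used non-specific IgG in untreated cells. The stem cells were kept on inactivated fibroblast feeders with LIF and grown without feeders, on gelatin, for the passages before harvest. How the knockdown was made, what its control carried, and whether the 2 libraries of a group came from separate cultures are not stated in any label, and the p-values therefore measure a spread between libraries that may be technical.

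These proteins bind short RNA motifs in and around exons and help decide whether an exon is kept. Muscleblind and CELF proteins often act on the same exons in opposite directions during the development of muscle and heart, and loss of muscleblind function underlies myotonic dystrophy. Muscleblind proteins are also known to repress a splicing pattern typical of embryonic stem cells, in mouse and in human. Esrp1 and Esrp2 drive epithelial exon choices, among them that of Fgfr2, while Rbfox2 and Qk promote many mesenchymal exon choices. Khdrbs1 encodes Sam68, a nuclear RNA-binding protein regulated by kinase signalling.

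The RNA-seq values were FPKM, fragment counts scaled to transcript length and to the total mapped, and the depth behind them is unknown. Their sum over all genes was between 447657.4 and 585678.1 per library. RIP libraries held 3472020 to 13033886 counts, of which 77.3% to 89.2% fell in 4 abundant RNAs (Rn45s, Rmrp, Rpph1 and Lars2), and 702016 to 1492111 counts lay outside them. Dppa5a, the knockdown target, was at 101 and 358 FPKM in Dppa5a_KD, against 5126 and 5417 FPKM in KD_control. It was at 1485 and 1818 FPKM in mESC and at 0 and 0.0871 FPKM in MEF. The 12 pluripotency markers (among them Pou5f1, Sox2 and Nanog) summed to 2421 to 4393 FPKM in the 6 stem cell libraries and to 23.4 and 17.7 FPKM in the MEF libraries. The 12 fibroblast markers (among them Col1a1 and Thy1) summed to 9.76 to 22.1 FPKM in the stem cell libraries and to 7481 and 6148 FPKM in the MEF libraries, so the labelled cell types carried their markers. The 6 macrophage markers summed to at most 18.4 FPKM in any RNA-seq library.

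**Figure D1:**
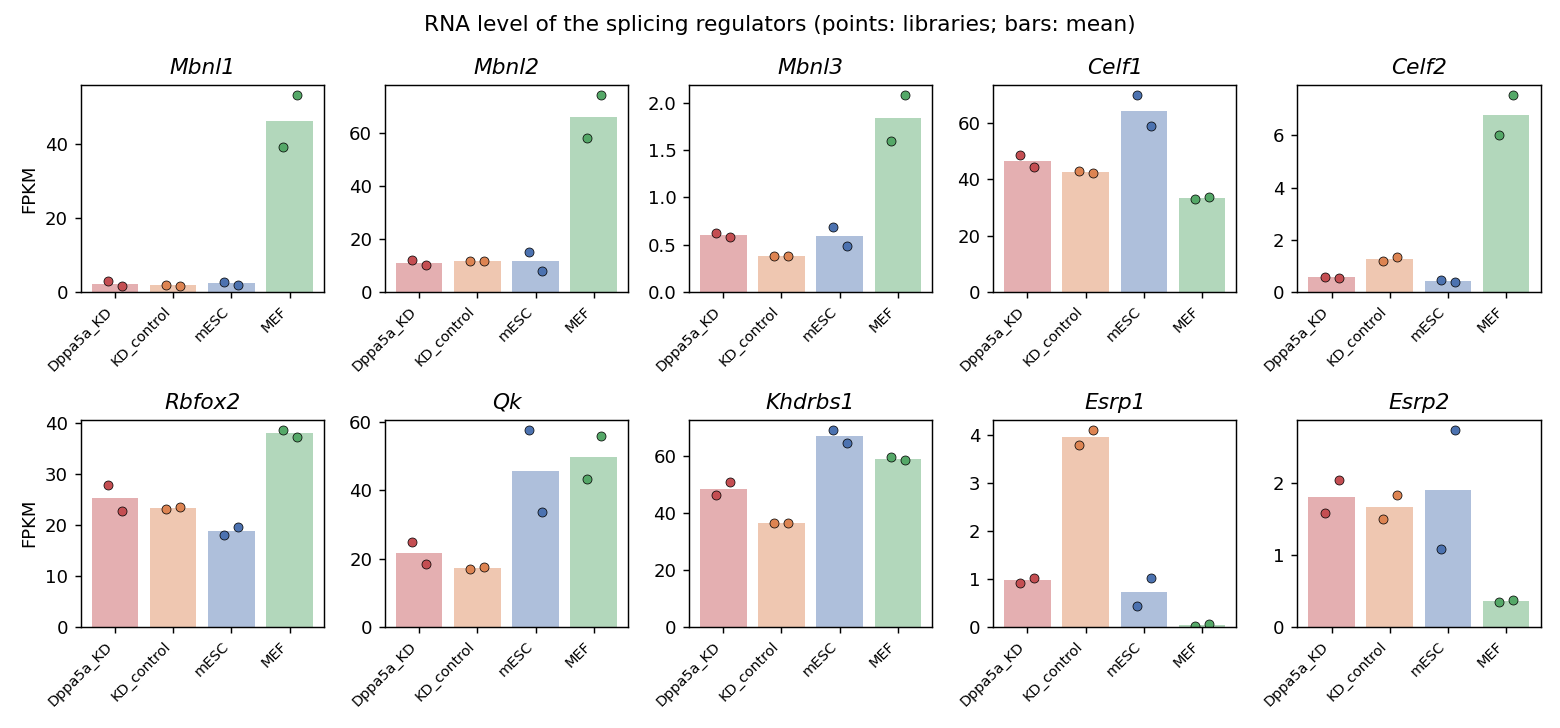
FPKM of each of the 10 regulators in the 4 RNA-seq groups, on axes that start at 0, with 1 point per library and bars at the mean of 2. The muscleblind genes and Celf2 stand highest in MEF, Esrp1 stands highest in KD_control at 3.80 and 4.11 FPKM, and Celf1 and Khdrbs1 stand highest in mESC.

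The first comparison was between stem cells and fibroblasts. The muscleblind genes, Celf2 and Rbfox2 were lower in mESC than in MEF, while Celf1 and Esrp2 were higher. In limma, on log2(FPKM + 1) with Benjamini-Hochberg adjustment over all genes, 9 of the 10 regulators passed the filter of a group mean of at least 1 FPKM, and 2 were called higher and 5 lower in mESC at an adjusted p under 0.05. Calls were common between these cell types: 56.7% of 12875 genes were called, 30.6% higher and 26.1% lower. The median log2 fold change was -0.83 over the 9 regulators and 0.15 over all genes. Celf2, Mbnl3 and Esrp2 passed the filter only through the group in which they were higher, so the counts are a description. Against the same MEF libraries, KD_control had 3 regulators higher and 7 lower of 10 tested, where 80.9% of 13365 genes were called, 48.4% higher and 32.5% lower. The median over these 10 was -0.86, against 0.29 over all genes. In that comparison Mbnl3, Esrp1 and Esrp2 passed the filter through their higher group only. Both comparisons use the same MEF libraries and are therefore given side by side. Median-ratio scaling moved the median of all genes to 0.01 in mESC and 0.04 in KD_control against MEF, and no called regulator changed sign under it. In bulk RNA, fewer cells that express a gene and less RNA per cell cannot be told apart.

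Mbnl1 had the most negative log2 fold change of the tested regulators in both stem cell groups against MEF. The 250 bases before their annotated starts are shown because Mbnl1 and Mbnl2 stand low together in every stem cell library, and the letters let their starts be compared. They are RefSeq sequences of build GRCm38.p6, read 5′ to 3′ on the strand of the gene, and capitals mark every match, on either strand, to 5 motifs. The motifs are the E-box CACCTG, which ZEB and Snail proteins bind, the GC box, spelled GGGCGG, the box named for its letters CCAAT, the AP-1 site, which reads TGANTCA, and the TATA box, searched here as TATAAA. Mbnl1 has 2 entries, at chr3:60472580-60472829 and chr3:60500929-60501178 on the plus strand. Mbnl2 lies at chr14:120275419-120275668 on the plus strand and Mbnl3 at chrX:51205991-51206240 on the minus strand.
Mbnl1, first start: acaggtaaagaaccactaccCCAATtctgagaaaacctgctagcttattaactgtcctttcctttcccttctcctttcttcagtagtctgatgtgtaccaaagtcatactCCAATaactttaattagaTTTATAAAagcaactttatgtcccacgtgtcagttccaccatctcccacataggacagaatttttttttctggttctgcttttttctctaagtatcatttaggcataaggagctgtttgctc
Mbnl1, second start: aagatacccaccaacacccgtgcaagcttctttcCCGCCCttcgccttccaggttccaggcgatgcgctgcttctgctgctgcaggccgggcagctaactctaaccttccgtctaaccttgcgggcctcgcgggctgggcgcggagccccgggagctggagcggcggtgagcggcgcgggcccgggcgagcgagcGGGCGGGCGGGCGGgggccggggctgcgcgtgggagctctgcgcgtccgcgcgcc
Mbnl2: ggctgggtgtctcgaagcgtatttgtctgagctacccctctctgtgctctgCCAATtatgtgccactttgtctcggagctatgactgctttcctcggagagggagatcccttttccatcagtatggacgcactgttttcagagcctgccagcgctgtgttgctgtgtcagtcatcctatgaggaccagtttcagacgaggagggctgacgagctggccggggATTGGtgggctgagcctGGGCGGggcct
Mbnl3: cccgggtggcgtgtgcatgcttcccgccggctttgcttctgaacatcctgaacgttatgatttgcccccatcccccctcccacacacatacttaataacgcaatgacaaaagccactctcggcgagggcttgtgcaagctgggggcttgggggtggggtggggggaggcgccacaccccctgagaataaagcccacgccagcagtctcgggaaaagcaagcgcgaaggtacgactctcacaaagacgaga
The first Mbnl1 start is AT-rich, with a GC content of 38.0% and 1 CpG, and holds 2 CCAAT boxes and 2 overlapping TATA box matches on opposite strands. The second Mbnl1 start has a GC content of 73.6%, 33 CpGs and 4 GC boxes, of which 3 overlap in 1 run. Mbnl2 has a GC content of 57.2% with 10 CpGs, 1 GC box and 2 CCAAT boxes on opposite strands, and Mbnl3 has 59.2% with 15 CpGs and none of the 5 motifs. Over 32851 RefSeq promoters of the same length the median was a GC content of 52.4% and 6 CpGs, and 32.7% held a GC box, 33.8% a CCAAT box, 12.4% a TATA box, 6.75% the AP-1 site and 17.2% the E-box. The E-box and the AP-1 site were in none of the 4 windows. The FPKM tables do not say which Mbnl1 start was used. Entries were matched for 6 of the 10 regulators (the muscleblind genes, Celf1, Celf2 and Qk), and the other 4 are Rbfox2, Esrp1, Esrp2 and Khdrbs1.

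Mbnl1, the best studied member of the family and a repressor or activator of exons depending on where it binds, was at 2.80 and 1.89 FPKM in mESC, against 39.2 and 53.4 FPKM in MEF. The other stem cell libraries had 2.90 and 1.59 FPKM in Dppa5a_KD and 1.90 and 1.65 FPKM in KD_control. Both MEF libraries lay far above all 6 stem cell libraries, whose values overlapped one another. The log2 fold change was -3.82 in mESC against MEF (SE 0.26, adjusted p = 0.00026, limma) and -4.08 in KD_control against MEF (SE 0.17, adjusted p = 3.7e-05, limma). Mbnl1 kept an adjusted p of at most 0.018 under every alternative tried for mESC against MEF.

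Mbnl2, the paralogue best known in brain, was at 15.1 and 7.95 FPKM in mESC, against 58.0 and 74.5 FPKM in MEF. The groups did not overlap, although the mESC libraries differed from each other by more than those of any other stem cell group. Mbnl2 had a log2 fold change of -2.48 (SE 0.34, adjusted p = 0.0025, limma). That call ended without MEF replicate 1 (-2.65, adjusted p = 0.052) or MEF replicate 2 (-2.30, adjusted p = 0.065). KD_control was at 11.5 and 11.6 FPKM, with a log2 fold change of -2.41 against MEF (SE 0.14, adjusted p = 9.4e-05, limma).

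Mbnl3, the X-linked paralogue described in the placenta and in immature muscle, was scarce in every group. It was at 0.690 and 0.491 FPKM in mESC and at 0.378 and 0.377 FPKM in KD_control, against 1.60 and 2.09 FPKM in MEF. The MEF libraries again stood above all the others, at a small fraction of the Mbnl1 and Mbnl2 levels. Its log2 fold change was -0.83 in mESC against MEF (SE 0.18, adjusted p = 0.012, limma) and -1.04 in KD_control against MEF (SE 0.11, adjusted p = 0.00063, limma). The first of these ended without MEF replicate 2 (-0.71, adjusted p = 0.062).

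The make-up of the family differed too. Summed over the 3 paralogues, the level was 18.6 and 10.3 FPKM in mESC and 13.8 and 13.7 FPKM in KD_control, against 98.8 and 130 FPKM in MEF. Mbnl2 supplied most of the muscleblind FPKM in every library. Mbnl1 made up 15.1% and 18.3% of the sum in mESC and 13.8% and 12.1% in KD_control, against 39.7% and 41.1% in MEF. These shares did not overlap between stem cells and fibroblasts. With 2 libraries against 2, no exact test on a share can reach a p under 0.05, and none was run.

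**Figure D2:**
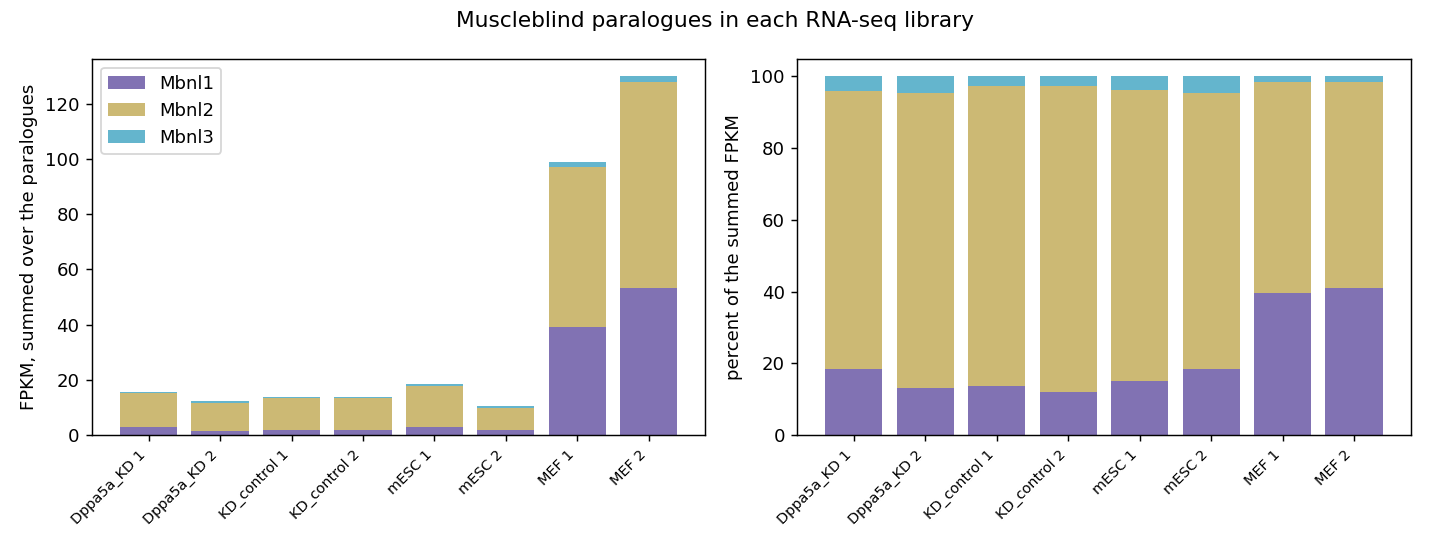
Summed FPKM of Mbnl1, Mbnl2 and Mbnl3 (left) and the percent of that sum from each paralogue (right), in every RNA-seq library. The MEF libraries reach 98.8 and 130 FPKM, and Mbnl1 fills 39.7% and 41.1% of the sum there.

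The CELF genes went in opposite directions. Celf1, a widely expressed regulator that also binds GU-rich elements in messages and promotes their decay, was at 70.0 and 58.8 FPKM in mESC, against 32.9 and 33.6 FPKM in MEF. Celf2, its paralogue of heart, muscle, brain and lymphocytes, was at 0.466 and 0.368 FPKM in mESC, against 5.999 and 7.55 FPKM in MEF. Neither gene overlapped between these groups. Celf2 had a log2 fold change of -2.45 (SE 0.19, adjusted p = 0.00039, limma) and remained called under every alternative tried. Celf1 had a log2 fold change of 0.93 (SE 0.21, adjusted p = 0.014, limma), a call that ended without MEF replicate 1 (0.91, adjusted p = 0.15) or MEF replicate 2 (0.94, adjusted p = 0.14) and with the replicate number as a block (adjusted p = 0.070).

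In KD_control, Celf1 was at 42.9 and 42.2 FPKM, still above both MEF libraries, with a log2 fold change of 0.35 (SE 0.08, adjusted p = 0.012, limma). Median-ratio scaling, which moved the median of all genes to 0.04, left Celf1 at 0.09 (adjusted p = 0.37, limma), and the call also ended without KD_control replicate 1 (0.33, adjusted p = 0.13) or replicate 2 (0.36, adjusted p = 0.12). Celf2 was at 1.17 and 1.35 FPKM in KD_control, a log2 fold change of -1.77 against MEF (SE 0.13, adjusted p = 0.00019, limma). Celf2 supplied 0.661% and 0.622% of the summed Celf1 and Celf2 FPKM in mESC and 2.66% and 3.11% in KD_control, against 15.4% and 18.4% in MEF.

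Rbfox2, which binds UGCAUG and is a main FOX protein outside neurons and muscle, was at 18.0 and 19.5 FPKM in mESC, against 38.7 and 37.2 FPKM in MEF. KD_control was at 23.2 and 23.5 FPKM and Dppa5a_KD at 27.8 and 22.8 FPKM, so all 6 stem cell libraries lay below both MEF libraries. Its log2 fold change was -0.98 in mESC against MEF (SE 0.20, adjusted p = 0.0092, limma) and -0.68 in KD_control against MEF (SE 0.08, adjusted p = 0.0011, limma). The mESC call ended without MEF replicate 1 (-0.95, adjusted p = 0.13) or MEF replicate 2 (-1.01, adjusted p = 0.12).

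Qk, a STAR-domain protein that binds ACUAA-type elements and also promotes circular RNA formation in human mesenchymal cells, was not ordered by cell type. It was at 57.9 and 33.7 FPKM in mESC, against 43.4 and 56.1 FPKM in MEF, and these groups overlapped. Its log2 fold change was -0.16 (SE 0.32, adjusted p = 0.71, limma). KD_control, at 17.0 and 17.4 FPKM, lay below both groups, with a log2 fold change of -1.47 against MEF (SE 0.14, adjusted p = 0.00051, limma). Dppa5a_KD, at 24.9 and 18.3 FPKM, was also below them.

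Khdrbs1 was abundant everywhere. It was at 69.3 and 64.7 FPKM in mESC, against 59.5 and 58.7 FPKM in MEF, without overlap but with a log2 fold change of only 0.18 (SE 0.20, adjusted p = 0.49, limma). KD_control was at 36.6 and 36.5 FPKM, the lowest of the 4 groups, and its log2 fold change against MEF was -0.68 (SE 0.08, adjusted p = 0.00094, limma).

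Of the epithelial regulators, Esrp1 differed between the stem cell groups as well as from fibroblasts, and Esrp2 differed from fibroblasts. Esrp1 was at 0.439 and 1.01 FPKM in mESC and at 3.80 and 4.11 FPKM in KD_control, against 0.00774 and 0.0481 FPKM in MEF. Both MEF libraries were close to 0, and both KD_control libraries were above every other library. In mESC against MEF, Esrp1 fell below the filter, and without a filter its log2 fold change was 0.73 (adjusted p = 0.040, limma). In KD_control against MEF it was 2.27 (SE 0.08, adjusted p = 2.5e-05, limma).

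Esrp2, its paralogue, was at 1.07 and 2.74 FPKM in mESC and at 1.497 and 1.83 FPKM in KD_control, against 0.347 and 0.372 FPKM in MEF. Every stem cell library lay above both MEF libraries, and the mESC libraries spanned the whole range of the stem cells. The log2 fold change was 1.03 in mESC against MEF (SE 0.30, adjusted p = 0.031, limma) and 0.97 in KD_control against MEF (SE 0.09, adjusted p = 0.00046, limma). The mESC call ended without a filter on low values (adjusted p = 0.067) and without MEF replicate 1 (1.02, adjusted p = 0.19) or MEF replicate 2 (1.05, adjusted p = 0.18). Esrp1 supplied 29.0% and 27.0% of the summed Esrp FPKM in mESC and 71.7% and 69.3% in KD_control, against 2.18% and 11.5% in MEF.

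As a sum, the 14 epithelial markers stood lowest in MEF and highest in KD_control among mESC, KD_control and MEF, as Esrp1 did. Esrp2 was not highest in KD_control. They summed to 131 and 241 FPKM in mESC and 404 and 406 FPKM in KD_control, against 15.0 and 10.2 FPKM in MEF, where 4 and 7 of the 14 were at 0. Of 10 tested in mESC against MEF, 7 were higher, none lower and 3 not called (limma). Over all genes, 30.6% were higher and 26.1% lower. Cdh1, the epithelial cadherin, led with a log2 fold change of 6.22 (adjusted p = 8.1e-05, limma). Cdh1 and most of the others tested averaged under 1 FPKM in MEF and passed the filter only through mESC, so these counts are a description. Of 12 mesenchymal markers, 11 were lower in mESC and none was higher. Some of these averaged under 1 FPKM in mESC and passed the filter only through MEF. The part of cell state in the levels of the splicing regulators was not tested.

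**Figure D3:**
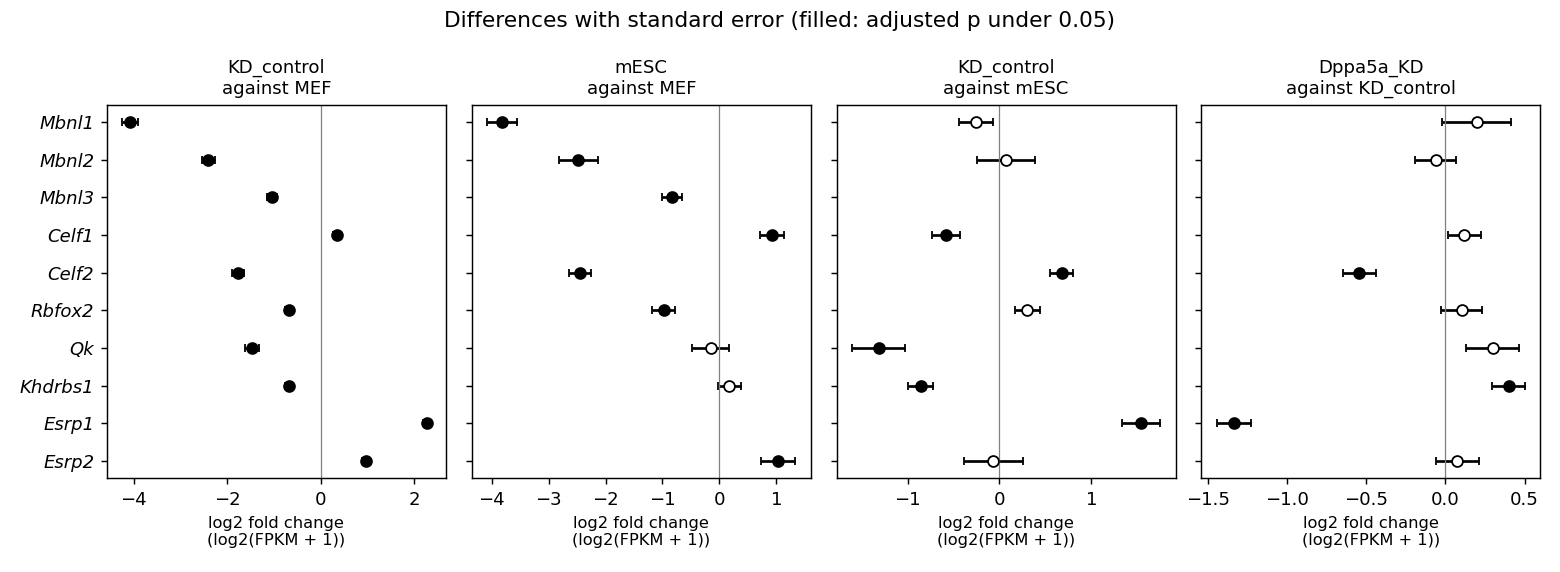
Log2 fold changes of the regulators, on the log2(FPKM + 1) scale, in 4 comparisons with their standard errors from limma, filled where the adjusted p was under 0.05; the panels have separate axes, and a gene below the filter has no point. Mbnl1 lies at -4.08 and -3.82 against MEF, and Esrp1 lies at 1.54 in KD_control against mESC and at -1.33 in Dppa5a_KD against KD_control.

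KD_control and mESC carry the same labels for cell type and genotype, and 5 of 9 regulators tested were called between them. Esrp1 and Celf2 were higher in KD_control, and Khdrbs1, Qk and Celf1 were lower, where 41.4% of 12595 genes were called, 26.5% higher and 15.0% lower. Both regulators that were higher averaged under 1 FPKM in mESC and passed the filter only through KD_control, so their count is a description. Median-ratio scaling moved the median of all genes from 0.19 to -0.02 and the split to 2600 higher and 2439 lower, against 3336 and 1884 as deposited, with the same 5 regulators called in the same directions. Esrp1 had a log2 fold change of 1.54 (SE 0.21, adjusted p = 0.012, limma), and its adjusted p was at most 0.023 under every alternative in which it was tested. Rbfox2 (0.30, adjusted p = 0.14), Mbnl1 (-0.26, adjusted p = 0.32), Mbnl2 (0.07, adjusted p = 0.87) and Esrp2 (-0.07, adjusted p = 0.87) were not called by limma, and Mbnl3 was below the filter. Without KD_control replicate 1, and likewise without replicate 2, Esrp1 was the only regulator called, at adjusted p values up to 0.46 for the other 4. Of 13 epithelial markers tested, 5 were higher in KD_control and none lower, led by Cldn7 with 4.23 (adjusted p = 0.0075, limma). Of 8 primitive endoderm markers, 7 were lower and none higher. Of 12 pluripotency markers, 3 were higher and 1 lower, Zfp42 at -3.64 (adjusted p = 0.0071, limma). Of 8 mesenchymal markers, 3 were higher and 3 lower. Some called epithelial, primitive endoderm and mesenchymal markers averaged under 1 FPKM in their lower group. They passed the filter only through the other group, so these counts are a description. Primitive endoderm markers summed to 35.6 and 34.2 FPKM in KD_control, against 97.3 and 140 FPKM in mESC. The part of these marker lists in the differences of the regulators was not tested. The labels do not say how the 2 sets of libraries were prepared relative to each other.

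The knockdown comparison asked what changed when Dppa5a was reduced. Esrp1 and Celf2 fell and Khdrbs1 rose in Dppa5a_KD, and the muscleblind genes, Celf1, Rbfox2, Qk and Esrp2 were not called. In limma, 1 regulator was called higher and 2 lower of 9 tested, where 37.4% of 12345 genes were called, 13.6% higher and 23.8% lower. The share called among the regulators was close to that of all genes. The median log2 fold change was 0.10 over the 9 regulators and -0.11 over all genes. Median-ratio scaling moved the all-gene median to 0.05 and the split to 2551 genes higher and 2124 lower, against 1678 and 2940 as deposited, and again called 1 regulator higher and 2 lower.

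Esrp1 was at 0.910 and 1.02 FPKM in Dppa5a_KD, against 3.80 and 4.11 FPKM in KD_control. The groups were far apart, and the knockdown libraries lay at or near the upper mESC library (1.01 FPKM). The log2 fold change was -1.33 (SE 0.11, adjusted p = 0.0060, limma), and the adjusted p was at most 0.016 under all alternatives in which it was tested, each left-out library included. Esrp1 passed the filter only through KD_control. Esrp2 was at 1.59 and 2.03 FPKM in Dppa5a_KD, against 1.497 and 1.83 FPKM in KD_control, with overlap and a log2 fold change of 0.08 (SE 0.14, adjusted p = 0.69, limma). Esrp1 made up 36.5% and 33.4% of the summed Esrp FPKM in Dppa5a_KD, against 71.7% and 69.3% in KD_control.

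Celf2 was at 0.575 and 0.533 FPKM in Dppa5a_KD, against 1.17 and 1.35 FPKM in KD_control. The libraries did not overlap, and both groups were low. Celf2, like Esrp1, passed the filter only through KD_control. Its log2 fold change was -0.54 (SE 0.11, adjusted p = 0.019, limma), a call that ended after rescaling to a common sum (adjusted p = 0.057) and without KD_control replicate 2 (-0.48, adjusted p = 0.11). Khdrbs1 was at 46.4 and 50.7 FPKM in Dppa5a_KD, against 36.6 and 36.5 FPKM in KD_control. Its libraries did not overlap either, with a log2 fold change of 0.40 (SE 0.10, adjusted p = 0.040, limma). That call ended with the replicate number as a block (adjusted p = 0.083), with all 4 RNA-seq groups in 1 fit (adjusted p = 0.090), and without KD_control replicate 1 (adjusted p = 0.44) or replicate 2 (adjusted p = 0.45).

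For Qk, Celf1, Mbnl1, Mbnl2 and Rbfox2, the knockdown libraries differed from each other by more than the groups did. Qk was at 24.9 and 18.3 FPKM in Dppa5a_KD, against 17.0 and 17.4 FPKM in KD_control, a log2 fold change of 0.30 (SE 0.17, adjusted p = 0.21, limma). Celf1 was at 48.5 and 44.2 FPKM in Dppa5a_KD, against 42.9 and 42.2 FPKM in KD_control, a log2 fold change of 0.12 (SE 0.11, adjusted p = 0.41, limma). In both genes the knockdown libraries lay above the controls. Mbnl1 was at 2.90 and 1.59 FPKM in Dppa5a_KD, against 1.90 and 1.65 FPKM in KD_control (0.20, SE 0.22, adjusted p = 0.51, limma). Mbnl2 was at 12.2 and 10.0 FPKM in Dppa5a_KD, against 11.5 and 11.6 FPKM in KD_control (-0.06, SE 0.13, adjusted p = 0.73, limma). Both muscleblind genes overlapped between the groups, as did Rbfox2. Rbfox2 had a log2 fold change of 0.10 (SE 0.13, adjusted p = 0.55, limma). Mbnl3 stayed below the filter, at 0.619 and 0.577 FPKM in Dppa5a_KD, against 0.378 and 0.377 FPKM in KD_control, and without a filter its log2 fold change was 0.21 (adjusted p = 0.044, limma). With each library left out in turn, 2 regulators were called without KD_control replicate 1 (2440 genes), 1 without KD_control replicate 2 (2415 genes), 4 without Dppa5a_KD replicate 1 (8593 genes) and 7 without Dppa5a_KD replicate 2 (9436 of 12366 genes), so the counts over all genes moved with those of the regulators.

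Epithelial markers were among several cell-type lists with more genes called lower than higher in the knockdown. Over all genes, 23.8% were lower and 13.6% higher. The epithelial markers summed to 269 and 290 FPKM in Dppa5a_KD, against 404 and 406 FPKM in KD_control, with none of the 14 at 0 in either group. Of 13 tested, 6 were lower, 1 higher and 6 not called (limma). The tight junction gene Cldn7 had a log2 fold change of -2.43 and the keratin gene Krt18 of -1.40 (adjusted p = 0.0060 each), while the marker that rose, named after its value was seen, was Grhl2, an epithelial transcription factor, at 0.76 (adjusted p = 0.016). Mesenchymal markers went both ways, with 3 of 8 tested higher, among them Vim and Tgfbi at 0.59 and 0.48, and 2 lower, Snai1 and Twist1 at -1.42 and -0.57. Of 6 primitive endoderm markers tested, 4 were lower and 1 higher, and of 4 fibroblast markers, 3 were lower and none higher, with Pdgfra in both lists. Pdgfra and some others called lower averaged under 1 FPKM in Dppa5a_KD and passed the filter only through KD_control, so these counts are a description. The part of these markers in the Esrp1 difference was not tested. The KD_control libraries are shared between this comparison and KD_control against mESC, so opposite signs in the 2 comparisons are not separate observations.

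A further 29 regulators of splicing or message fate gave a frame for these values. In mESC against MEF, 9 of 19 tested were higher and none lower (limma), against 30.6% and 26.1% of all genes. Rbm38 led with a log2 fold change of 3.64, with Rbpms2 at 3.33, Elavl2 at 1.81 and Msi2 at 2.24. Their adjusted p lay between 0.00019 and 0.0013 (limma). Elavl2 and others of the 9 averaged under 1 FPKM in MEF and passed the filter only through mESC, so their count is a description. In KD_control against MEF, 12 of 19 were higher and 5 lower (limma), against 48.4% and 32.5% of all genes. Elavl3, a neuronal Hu protein, led at 3.26 with Rbm47 at 3.14. Both of these and others of the 12 passed the filter only through KD_control, so that count is a description. In Dppa5a_KD against KD_control, 2 of 19 were higher, Rbm4 at 0.81 and Ptbp2, the neuronal paralogue of the polypyrimidine tract protein, at 0.62. The 3 that were lower included Elavl3 at -1.40 and Msi1 at -0.92, where 13.6% of all genes were higher and 23.8% lower. In KD_control against mESC, 3 of 20 were higher and 4 lower, led by Ptbp2 at -2.04, against 26.5% and 15.0% of all genes. Among those higher, Rbm20 averaged under 1 FPKM in mESC and passed the filter only through KD_control, so this count too is a description.

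Across the 8 RNA-seq libraries, the genes most like each regulator were ranked by Pearson correlation of log2(FPKM + 1) among 8095 genes. These values describe 8 libraries from 4 groups, and they carry no test. The MEF pair sets most of the range for Mbnl1 and Celf2. For Qk and Khdrbs1 the KD_control libraries were the lowest, and for Esrp1 they were the highest. Mbnl1 was most like Hipk3, Dnajb4 and Fndc3b (r between 0.997 and 1.00), and Celf2 was most like Gulp1 (r = 0.998). Esrp1, whose pattern peaks in KD_control, was most like Stoml1, Acsf2 and Wdr20 (r between 0.989 and 0.991). Qk was most like Zfx, Cul3 and Taok1 (r between 0.997 and 0.999). Such values were shared by many genes, with an r of at least 0.95 in 571 genes for Mbnl1, 566 for Celf2, 101 for Esrp1 and 124 for Qk. Between regulators, Qk and Khdrbs1 were correlated at 0.858, and both ran against Esrp1, at -0.843 and -0.846.

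The RIP libraries asked which RNAs come down with 3Flag-Dppa5a. Esrp1 was recovered less with the Flag antibody than with IgG, and none of the regulators was called as enriched. In edgeR's quasi-likelihood test, 9 regulators passed the count filter among 10473 genes. In Flag_RIP against IgG_RIP none was higher and 1 was lower, where 2.32% of all genes were called, 1.16% higher and 1.16% lower. DESeq2 called 2 lower and none higher, among 343 of 10473 genes called. Qk was the regulator higher at an unadjusted edgeR p under 0.05, which 1607 genes had in either direction. In HU_Flag_RIP against IgG_RIP no regulator was called by edgeR, while 3 (Esrp1, Mbnl2 and Rbfox2) had an unadjusted p under 0.05, as did 1788 genes. DESeq2 called 1 regulator there, among 431 genes. In edgeR, 2.86% of genes were called there, 1.44% higher and 1.42% lower. In HU_Flag_RIP against Flag_RIP none was called by edgeR or DESeq2 and none had an unadjusted p under 0.05, where 0.611% of genes were called, 0.143% higher and 0.468% lower. Its log2 fold changes were 1.73 for Celf2, 1.08 for Esrp1, 0.63 for Mbnl1, 0.53 for Mbnl2, 0.26 for Rbfox2, -0.16 for Celf1, -0.24 for Khdrbs1, -0.37 for Mbnl3 and -0.60 for Qk. The Flag_RIP and HU_Flag_RIP comparisons with IgG share the IgG libraries, and no IgG library after HU was analysed here.

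**Figure D4:**
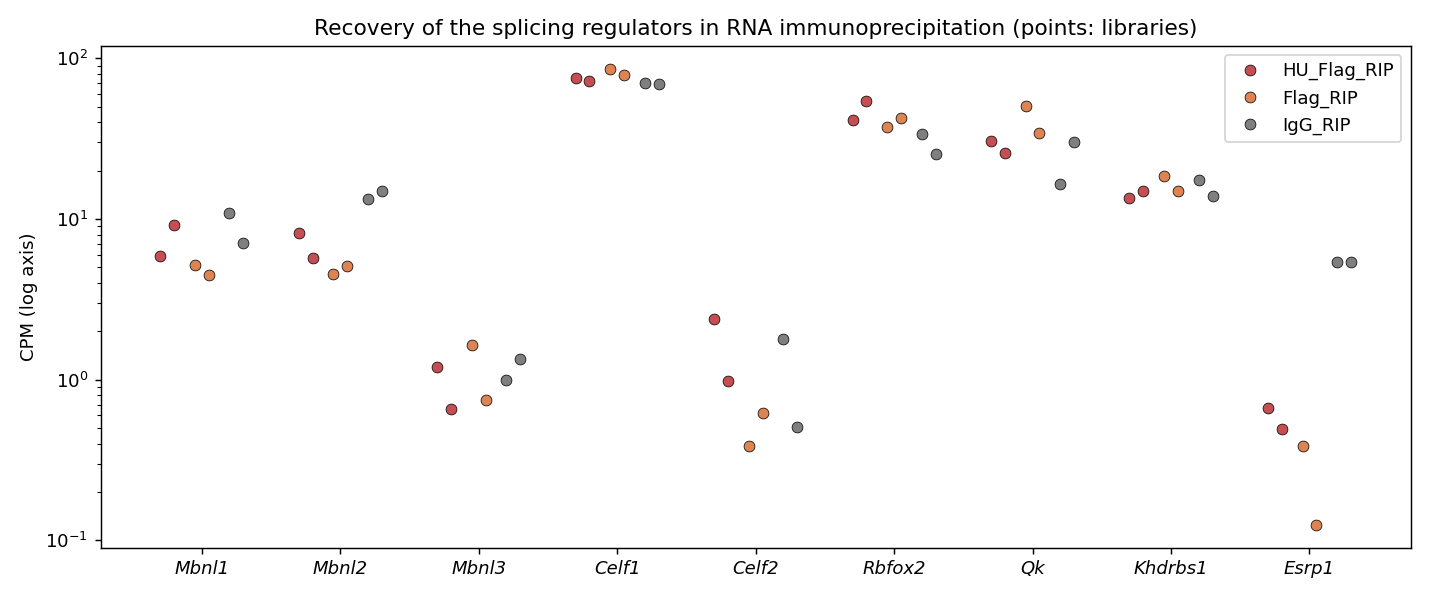
Counts scaled to library size (CPM, log axis) of the regulators in the RIP libraries, 1 point per library; Esrp2 is below the count filter and is not drawn. Esrp1 is at 0.389 and 0.125 CPM in Flag_RIP and at 5.38 and 5.42 CPM in IgG_RIP, and Mbnl2 is also lower with Flag than with IgG.

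Esrp1 had 5 and 3 counts in HU_Flag_RIP and 4 and 1 counts in Flag_RIP, against 27 and 32 counts in IgG_RIP. The IgG libraries were the smallest in total counts. Outside the 4 abundant RNAs, IgG_RIP replicate 2 held 841305 counts, against 816592 in HU_Flag_RIP replicate 2. Esrp1 passed the count filter only through the IgG libraries, so the call describes a gene chosen for testing by its higher group. The ratio of scaled counts was 0.0507 in Flag_RIP over IgG_RIP (95% exact interval 0.0159 to 0.125) and 0.109 in HU_Flag_RIP over IgG_RIP (0.0449 to 0.229). These intervals cover counting error only. Both Flag groups lay wholly below IgG. The log2 fold change was -4.25 in Flag_RIP against IgG_RIP (SE 1.02, adjusted p = 0.031, edgeR) and -3.17 in HU_Flag_RIP against IgG_RIP (SE 0.96, adjusted p = 0.080, edgeR). The first call ended when any one of the 4 libraries was left out, with adjusted p between 0.083 and 0.21. The second was called by DESeq2 (adjusted p = 0.040), without a filter on low counts (adjusted p = 0.048) and with the replicate number as a block (adjusted p = 0.047).

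Mbnl2 was at 8.24 and 5.75 CPM in HU_Flag_RIP and at 4.57 and 5.12 CPM in Flag_RIP, against 13.3 and 14.9 CPM in IgG_RIP. Both IgG libraries were the highest. Its log2 fold change was -1.54 in Flag_RIP against IgG_RIP (SE 0.44, adjusted p = 0.073, edgeR), and it was called by DESeq2 (adjusted p = 0.0496) and with the replicate number as a block (adjusted p = 0.032). Mbnl1 was at 5.85 and 9.20 CPM in HU_Flag_RIP and at 5.15 and 4.50 CPM in Flag_RIP, against 10.95 and 7.11 CPM in IgG_RIP. HU_Flag_RIP overlapped IgG_RIP (log2 fold change -0.26, adjusted p = 0.85, edgeR), and Flag_RIP lay below it (log2 fold change -0.90, adjusted p = 0.40, edgeR). Mbnl3 had 9 and 4 counts in HU_Flag_RIP and 17 and 6 counts in Flag_RIP, against 5 and 8 counts in IgG_RIP, too few to place it.

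Qk was at 30.4 and 25.6 CPM in HU_Flag_RIP and at 50.7 and 34.5 CPM in Flag_RIP, against 16.5 and 30.3 CPM in IgG_RIP. Both Flag_RIP libraries were above both IgG libraries, with a log2 fold change of 0.86 (SE 0.35, adjusted p = 0.22, edgeR). Rbfox2 was at 41.2 and 54.5 CPM in HU_Flag_RIP and at 37.5 and 42.2 CPM in Flag_RIP, against 33.8 and 25.6 CPM in IgG_RIP. Neither Flag group overlapped IgG_RIP, and the log2 fold change against IgG_RIP was 0.69 after HU (SE 0.31, adjusted p = 0.26, edgeR) and 0.43 without it (SE 0.31, adjusted p = 0.56, edgeR). Scaled by library size alone, which moved the median of all genes to -0.87 in Flag_RIP and -0.88 in HU_Flag_RIP against IgG_RIP, Qk and Rbfox2 had negative log2 fold changes in both comparisons. The calls over all genes were then 64 higher and 2214 lower in Flag_RIP and 92 higher and 2617 lower in HU_Flag_RIP, against 121 and 122 and 151 and 149 with trimmed-mean scaling. Celf1 was at 75.1 and 72.6 CPM in HU_Flag_RIP and at 86.2 and 78.2 CPM in Flag_RIP, against 70.5 and 68.9 CPM in IgG_RIP. Khdrbs1 was at 13.6 and 14.9 CPM in HU_Flag_RIP and at 18.6 and 15.0 CPM in Flag_RIP, against 17.5 and 13.9 CPM in IgG_RIP. Neither was called in either comparison with IgG (adjusted p = 0.76 and 0.94 in Flag_RIP, edgeR). Celf2 had 18 and 6 counts in HU_Flag_RIP and 4 and 5 counts in Flag_RIP, against 9 and 3 counts in IgG_RIP. Esrp2 stayed below the filter, with 3 and 4 counts in HU_Flag_RIP and 4 and 1 counts in Flag_RIP, against 1 and 6 counts in IgG_RIP.

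Other epithelial RNAs were low with Flag as well. The 14 epithelial markers summed to 22.5 and 23.8 CPM in HU_Flag_RIP and 27.6 and 29.995 CPM in Flag_RIP, against 102 and 95.1 CPM in IgG_RIP, with at least 8 of the 14 above 0 in every library. Of 9 tested, 3 were lower in Flag_RIP (Grhl2, Cdh1 and Cldn4) and 4 in HU_Flag_RIP, and none was higher in either (edgeR). Over all genes, 1.16% were lower in Flag_RIP and 1.42% in HU_Flag_RIP. Grhl2 and Cldn4 passed the count filter only through the IgG libraries, in which they were higher, so these counts are a description. Rbm47, an RNA-binding protein of epithelial tissues and 1 of the 29 related regulators, was at 2.39 and 1.97 CPM in HU_Flag_RIP and at 3.11 and 2.50 CPM in Flag_RIP, against 33.1 and 42.3 CPM in IgG_RIP. It had a log2 fold change of -3.73 in Flag_RIP against IgG_RIP (adjusted p = 4.6e-05, edgeR). The 6 macrophage markers were also low with Flag, at 0.930 and 4.76 CPM in HU_Flag_RIP and 1.36 and 1.37 CPM in Flag_RIP, against 14.1 and 6.26 CPM in IgG_RIP, and none of the 3 tested was called. Pluripotency markers, at 754 and 608 CPM in HU_Flag_RIP and 904 and 851 CPM in Flag_RIP, against 876 and 846 CPM in IgG_RIP, overlapped between Flag_RIP and IgG_RIP in their sum. Among the 12, Tfcp2l1 was called lower in Flag_RIP at -1.65 (adjusted p = 0.0078, edgeR), and Tfcp2l1 and Utf1 were called lower in HU_Flag_RIP. Dppa5a RNA itself was at 114 CPM in both HU_Flag_RIP libraries and at 170 and 160 CPM in Flag_RIP, against 232 and 252 CPM in IgG_RIP. The part of the IgG libraries' cell make-up in the Esrp1 difference was not tested.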

How the data were processed

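Deposited values came from 14 mouse libraries in 7 groups of 2. The RNA-seq files hold FPKM per gene with bounds that the authors made with Cufflinks, per the file headers. The RIP files hold whole-number counts per gene as deposited. Build mm10 and the tools HTSeq 0.6.1, TopHat2 2.0.8, CASAVA 2.19, Cuffdiff 2.1.1 and Cufflinks 2.1.1 are listed in the submitters' processing notes without their roles, and no label states the handling of strand.

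FPKM were summed over the loci of a symbol, giving 24345 symbols; 1 gene marked as failed and 27 symbols turned into dates were left out. Log2(FPKM + 1) was tested with limma 3.58.1 (trend) on the libraries of the 2 groups compared, for symbols that averaged 1 FPKM or more in one group or the other. Counts were tested with edgeR 4.0.16 (quasi-likelihood, trimmed-mean scaling, default expression filter) on all 6 RIP libraries; CPM used the same scaling. DESeq2 1.42.0 was also run. P-values were adjusted over all genes tested by Benjamini-Hochberg and called under 0.05. R was 4.3.3 and Python 3.11.15. The scripts were tested on simulated data.

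The text names all 10 regulators in every comparison, and of each other list at most the 4 called genes with the smallest p. For likeness, the 3 genes with the highest Pearson r were taken, among genes whose highest group averaged 10 FPKM or more. The regulators and lists were chosen with earlier results of these data known. Replicate numbers are shared between groups, but no label says that they pair libraries, so the tests carry no replicate block. Alternatives were another pseudocount, filters, scalings, tools, fits, the block, and each library left out.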

Additional observations from a re-analysis of the deposited data

Results flagged for a closer look

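The difference between KD_control and mESC is also the difference between their contrasts with MEF, since both use the same MEF libraries, and limma called it for 5 regulators. Esrp1 had a log2 fold change of 1.54 in KD_control against mESC (adjusted p = 0.012). Celf2 had 0.68 (adjusted p = 0.020). Both averaged under 1 FPKM in mESC and passed the filter only through KD_control. Qk had -1.31 (adjusted p = 0.030), Khdrbs1 had -0.86 (adjusted p = 0.015) and Celf1 had -0.58 (adjusted p = 0.045). With either KD_control library left out, Esrp1 alone remained called. Celf1 was also lost without a filter on low values (adjusted p = 0.053), after rescaling to a common sum (adjusted p = 0.064) and with the replicate block (adjusted p = 0.093). Groups of 2 libraries are too small for a test of single outlying libraries.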

How the results depend on the processing

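With 2 libraries a group, and few counts outside the abundant RNAs in RIP, small differences could be missed. Leaving out each library in turn, called regulators numbered 2 to 8 in mESC against MEF (2835 to 7056 genes), 9 to 10 in KD_control against MEF (7303 to 11788 genes), 1 to 9 in KD_control against mESC (1865 to 10895 genes), 1 to 7 in Dppa5a_KD against KD_control (2415 to 9436 genes), and 0 in Flag_RIP against IgG_RIP (30 to 248 genes), HU_Flag_RIP against IgG_RIP (23 to 252 genes) and HU_Flag_RIP against Flag_RIP (44 to 71 genes). A group left with 1 library is assumed to vary like the other.

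A filter at 5 FPKM, which tests fewer genes, left 1 regulator called in Dppa5a_KD against KD_control (3023 genes) and 3 in KD_control against mESC (3542 genes). In Dppa5a_KD against KD_control, 2916 genes were called after rescaling to a common sum and 2992 with all 4 groups in 1 fit, against 4618. In Flag_RIP against IgG_RIP, library size alone called 3 regulators (2278 genes), DESeq2 2 (343 genes), and no filter 433 genes, against 1 regulator and 243 genes. In HU_Flag_RIP against IgG_RIP, library size alone called 4 regulators (2709 genes), DESeq2 1 (431 genes) and no filter 1 (532 genes), against 0 and 300. HU_Flag_RIP against Flag_RIP had 41 genes called with only those groups in the fit, against 64. The causes were not tested.

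The replicate numbers share only a number. Same-numbered libraries deviated together with r = -0.55 in mESC against MEF, 0.01 in Dppa5a_KD against KD_control, 0.06 in KD_control against mESC, -0.09 in KD_control against MEF, -0.02 in Flag_RIP against IgG_RIP, -0.03 in HU_Flag_RIP against IgG_RIP and 0.40 in HU_Flag_RIP against Flag_RIP. With the replicate block, 6 regulators were called in mESC against MEF (6408 genes), 10 in KD_control against MEF (11002 genes), 4 in KD_control against mESC (5928 genes), 2 in Dppa5a_KD against KD_control (5296 genes), 2 in Flag_RIP against IgG_RIP (508 genes), 1 in HU_Flag_RIP against IgG_RIP (617 genes) and 0 in HU_Flag_RIP against Flag_RIP (86 genes). With the numbers crossed in mESC against MEF, a choice made after seeing the data, 7 regulators and 8950 genes were called.

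Signs turned only for regulators not called in the reported tests. Mbnl2 was at 0.10 (median-ratio scaling) and 0.074 (common sum) in Dppa5a_KD against KD_control, and at -0.15 and -0.11 in KD_control against mESC. With library size alone, Celf1 was at -0.66, Khdrbs1 at -0.80, Mbnl3 at -0.87, Qk at -0.065 and Rbfox2 at -0.46 in Flag_RIP against IgG_RIP, and Celf1 at -0.84, Celf2 at -0.32, Qk at -0.69 and Rbfox2 at -0.22 in HU_Flag_RIP against IgG_RIP. Mbnl3 was at -0.076 in Flag_RIP against IgG_RIP with the replicate block. With each library left out, log2 fold changes ran from -0.54 to 0.23 for Qk in mESC against MEF. In Dppa5a_KD against KD_control they ran from -0.039 to 0.19 for Esrp2, -0.10 to 0.49 for Mbnl1, -0.19 to 0.068 for Mbnl2 and -0.033 to 0.24 for Rbfox2. In KD_control against mESC they ran from -0.49 to 0.36 for Esrp2 and -0.35 to 0.49 for Mbnl2. In Flag_RIP against IgG_RIP they ran from -1.80 to 0.0041 for Celf2, -0.058 to 0.30 for Khdrbs1 and -0.63 to 0.50 for Mbnl3. In HU_Flag_RIP against IgG_RIP they ran from -0.20 to 1.73 for Celf2, -0.31 to 0.044 for Khdrbs1, -0.62 to 0.080 for Mbnl1, -0.83 to 0.020 for Mbnl3 and -0.10 to 0.75 for Qk, and in HU_Flag_RIP against Flag_RIP from -0.88 to 0.31 for Mbnl3.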
